A study of Mus musculus with 6 samples.

Results

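Glycolysis splits glucose into pyruvate, and tissue short of oxygen or with high energy demand sends much of that pyruvate to lactate. The hypoxia-inducible factors (HIFs) are transcription factors whose alpha subunits are marked for destruction by oxygen-dependent prolyl hydroxylases, so they accumulate when oxygen is scarce. They raise transcription of most glycolytic genes, of genes for blood vessel growth, of mitophagy genes and of their own hydroxylases. The intestinal epithelium normally lives at low oxygen, and HIF activity is known to protect its barrier in colitis. The 34 genes described here were chosen by name, with earlier results of these data known. Of them, 20 cover glucose uptake, glycolysis, lactate export and the fate of pyruvate, and 14 cover HIF itself and its other targets. All 34 symbols were found among the 55335 genes of the deposited count table, and all 34 passed the low-count filter, which left 14107 genes for the test. A second identifier that carries the symbol Aldoa (ENSMUSG00000114515.2) held at most 23 counts in a library and is not counted among the 34.

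RNA-seq had been run on intestine from wild-type (WT) and Trmt6-/- mice, 3 animals each, all with colitis induced by dextran sulfate sodium (DSS). Trmt6 encodes a subunit of the methyltransferase that places 1-methyladenosine in tRNA, and the study asked how its loss alters colitis. The sources used here give no age, strain, DSS dose or intestinal segment, do not say whether Trmt6 was deleted in all cells, and no mice without DSS were analysed here. Per the labels' protocols the libraries came from amplified cDNA. They held 15213972 to 16972758 counts each, and within a group the Pearson correlation of log2 CPM was 0.933 to 0.973. Levels are CPM, counts per one-millionth of a library after scaling by the trimmed mean of M values (TMM), and unless named otherwise they are given in the order KO72, KO73, KO75 for the libraries labelled Trmt6-/- and WT185, WT186, WT187 for WT. Log2 fold changes above 0 mean a higher level under the label Trmt6-/-.

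The labels and the tissue were checked first. Trmt6 mRNA levels were 39.8, 34.2 and 36.2 CPM under the label Trmt6-/- and 30.9, 18.7 and 23.1 CPM in WT. It was thus not lower where the label reports the deletion but higher in every library so labelled. The log2 fold change was 0.60 ± 0.21 (SE), with an edgeR unadjusted p of 0.0256 and an adjusted p of 0.335. Gene counts do not show which exons were read, so every direction below rests on the labels. All 9 epithelial markers were tested, with summed levels of 11547 to 14388 CPM in the libraries labelled Trmt6-/- and 11168 to 12333 CPM in WT. The 12 markers of small intestinal enterocytes were all tested and summed to 35326 to 61881 against 22400 to 59369 CPM. Distal colon markers were sparse, 5 of the 8 in the table being at 0 in every library, but Slc26a3 stood at 174 to 425 CPM. Aqp8 was at 0.28, 0.70 and 0 CPM against 8.02, 54.5 and 0.96 CPM (-5.98 ± 1.65; edgeR adjusted p = 0.250). By these markers the profile was mostly that of small intestine. Markers of position along the small intestine varied between libraries. An index of ileal minus proximal markers (mean log2 CPM of 4 genes each) was 0.61, -1.0 and -3.67 against -1.69, -7.41 and -6.04. By these markers WT leaned proximal, and WT185 overlapped the other group. Whether this reflects the place sampled or altered expression of these genes was not tested. Neutrophil and monocyte markers (12 listed, 6 tested, 0 of 12 at 0 in all libraries) summed to 23.6 to 58.0 against 15.8 to 23.3 CPM. Lcn2 alone held 2.14, 7.19 and 21.4 CPM of that sum against 0.10, 0 and 0.06 CPM. It passed the low-count filter only through the libraries labelled Trmt6-/-. Of the 6 tested, 4 had a log2 fold change above 0, whereas Lyz2 (2.38 against 4.03 CPM) and Csf1r (1.42 against 2.24 CPM) had higher means in WT. Goblet and Paneth cell markers (9 of 9 tested) summed to 14786 to 18888 against 9159 to 15328 CPM. The part of these cells in the results below was not tested. In bulk tissue fewer cells of a type and less RNA per cell cannot be told apart.

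No gene of the set passed the test at an adjusted p below 0.05, while most of them leaned upward in the libraries labelled Trmt6-/-. By edgeR's quasi-likelihood test with Benjamini-Hochberg adjustment, 0 of 34 passed, where 0.0425% of all genes tested did. At an unadjusted p below 0.05 there were 11 (32.4%), beside a background of 12.1% of all genes. Of these, 10 were higher (Slc2a1, Hk2, Pfkl, Aldoa, Pdk1, Egln3, Bnip3, Bnip3l, Ndrg1 and P4ha1; background 6.15%) and 1 was lower (Pfkm; background 5.94%). Scaling by library totals left the 10 and the 1 as they were, while the background of higher genes dropped to 4.61%. The 2 groups did not overlap for 12 of the 34, against 18.7% of all genes tested. Of the 12, 11 were higher (background 9.7%), Ddit4 being the additional one, and 1 was lower (background 9.03%). The log2 fold change was above 0 for 27 of 34, compared with 46.1% of all genes, and the median was 0.46, compared with -0.03 for all genes. As the 34 were chosen with earlier results of these data known, these comparisons describe the set and do not test it. DESeq2 on the same counts called 8 of the 34 at an adjusted p below 0.05 (Slc2a1, Hk2, Aldoa, Pdk1, Bnip3, Bnip3l, Ndrg1 and P4ha1, all higher), where it called 4.49% of all genes and 2.66% as higher, and limma-voom called 0, with 12 at an unadjusted p below 0.05.

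**Figure D1:**
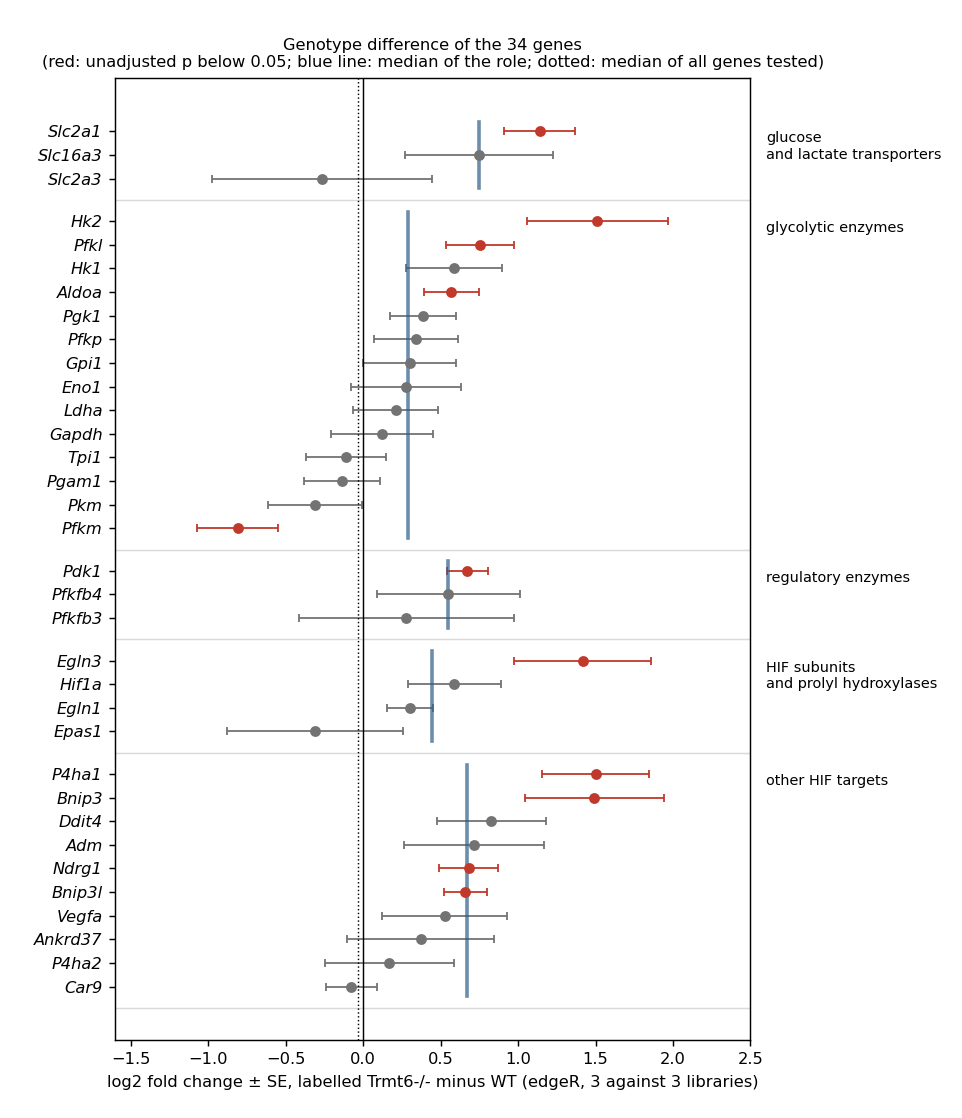
Log2 fold change with its SE for the 34 genes (x axis, libraries labelled Trmt6-/- minus WT, 3 against 3), grouped by role, with the role's median as a blue line and the median of all genes tested as a dotted line. The 11 genes at an unadjusted p below 0.05 are red, and Pfkm, at -0.81, is the one among them on the left.

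Glycolytic enzymes and the remaining HIF targets were then separated. The 14 enzymes from hexokinase to lactate dehydrogenase had a median log2 fold change of 0.29, with 10 above 0, 3 higher and 1 lower at an unadjusted p below 0.05. The 10 targets outside glycolysis had a median of 0.67, with 9 above 0, 4 higher and 0 lower. Over all genes 46.1% were above 0, 6.15% were higher and 5.94% lower, so the single lower enzyme is near the background. Over the 2 broader groups of the set, the median was 0.32 for the 20 glycolysis genes and 0.62 for the 14 HIF pathway genes. These medians are descriptions and their difference was not tested. Single libraries shifted both medians. The glycolysis median was 0.58 without WT186, 0.20 without WT185 and 0.20 without KO75. The HIF pathway median was 0.77, 0.48 and 0.57 in the same omissions, and lay between 0.48 and 0.77 over all 6. With the gut position index as a covariate the glycolysis and HIF pathway medians were 0.68 and 0.75, and that index itself leaned lower in WT. Without WT186, 16 of the 34 were at an unadjusted p below 0.05, beside 11.5% of all genes.

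HIF binds DNA at a short core, ACGTG or GCGTG, and the promoters of the set were searched for it because so many members are classical targets. RefSeq promoter windows on GRCm38.p6 were found for 30 of the 34 genes (not for Slc2a3, Epas1, Bnip3l and Ndrg1), 43 windows in all, and the 250 bases upstream of each start were read on both strands. The core ACGTG was present in 23 of 43 windows (53.5%), compared with 16.6% of all 32851 RefSeq windows and 21.2% of the windows of genes tested. Windows of a gene can overlap and hold the same match. By gene, ACGTG was present for 20 of 30 members and for 2543 of 10375 tested genes with a window. GCGTG was present in 23 of 43 (53.5%), compared with 28.2% of all windows and 43.2% of the windows of genes tested, so the members stood closer to the tested genes for it. Stretches around the core are shown for 7 of the genes whose groups did not overlap and for Ldha, whose groups did, 5′ to 3′ on the gene's strand with each core (or its reverse complement, CACGT or CACGC) in capitals. CACGTG carries ACGTG on both strands.
Slc2a1 (chr4:119108684-119108713, + strand): CACGCctctcagagtcccgccccggACGTG
Hk2 (chr6:82774490-82774529, - strand): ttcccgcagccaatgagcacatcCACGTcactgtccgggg
P4ha1 (chr10:59323246-59323291, + strand): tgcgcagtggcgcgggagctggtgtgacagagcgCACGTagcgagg
Bnip3 (chr7:138909592-138909631, - strand): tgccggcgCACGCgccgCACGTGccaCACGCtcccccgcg
Egln3 (chr12:54204080-54204119, - strand): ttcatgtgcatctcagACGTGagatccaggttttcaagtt
Pdk1 (chr2:71873124-71873163, + strand): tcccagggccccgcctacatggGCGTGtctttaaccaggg
Pfkm (chr15:98092434-98092473, + strand): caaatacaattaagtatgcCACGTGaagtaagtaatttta
Ldha (chr7:46845644-46845683, + strand): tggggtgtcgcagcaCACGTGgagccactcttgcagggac
Pfkm, lower at an unadjusted p below 0.05, carried ACGTG, and so did Ldha, whose groups overlapped. The median log2 fold change was 0.46 for the 20 members with ACGTG and 0.45 for the 10 without, 8 of which carried GCGTG, and it was -0.03 for 2543 tested genes with ACGTG and -0.05 for 7832 without. A match describes the letters of the window and is not evidence of binding.

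Transport of glucose into the cell and of lactate out of it was covered by 3 genes of the set. Slc2a1, the facilitative glucose transporter of most proliferating and hypoxic cells (ENSMUSG00000028645.11; GRCm38 chromosome 4, 119108711 to 119137983), stood at 30.3, 22.8 and 35.6 CPM against 15.4, 11.1 and 13.7 CPM. Every library labelled Trmt6-/- lay above every WT library, at 29.6 ± 6.40 against 13.4 ± 2.16 CPM (mean ± SD, n = 3 each). Its log2 fold change of 1.14 ± 0.23 (SE) had an adjusted p of 0.173 by edgeR, and its promoter core is the first sequence above. Slc16a3, which exports lactate, stood at 71.8, 99.2 and 75 CPM against 24.1, 89.9 and 32.6 CPM. Here WT186 lay among the libraries labelled Trmt6-/- and the other WT libraries far below (0.75 ± 0.48; adjusted p = 0.614). Slc2a3, a high-affinity glucose transporter of neurons and leukocytes, was scarce at 1.07 to 5.05 against 1.46 to 6.35 CPM. Its highest libraries, KO75 and WT187, were those with most T and NK cell transcripts, whose 12 markers summed to 91.5, 257 and 764 CPM against 282, 406 and 1052 CPM. The part of those cells in the Slc2a3 level was not tested.

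Hexokinases trap glucose by phosphorylating it. Hk2, the inducible hexokinase that docks on mitochondria, was higher in every library labelled Trmt6-/-, at 69.9, 85.5 and 130 CPM against 43.0, 13.8 and 43.1 CPM. The group means were 95.1 ± 31.1 and 33.3 ± 16.9 CPM, a log2 fold change of 1.51 ± 0.46 (edgeR adjusted p = 0.275). Low Hk2 in WT186 widened the gap, but WT185 and WT187 also lay below the lowest library labelled Trmt6-/-. Hk1, the housekeeping hexokinase, stood at 24.4, 20.9 and 18.4 CPM against 13.9, 8.80 and 19.8 CPM, with overlap through WT187 (0.58 ± 0.31; adjusted p = 0.532). Per kilobase of exon, both lay below Hkdc1. Hkdc1, a hexokinase domain gene of the gut and liver, made up 79.4 to 84.5% of the sum of Hk1, Hk2 and Hkdc1 in the libraries labelled Trmt6-/- and 84.7 to 97.1% in WT. Hk2 took 15.1, 13.2 and 18.8% against 12.5, 1.99 and 8.80%, so the groups did not overlap in that share either. Hkdc1 itself was at 422 ± 85.8 against 400.4 ± 166 CPM (0.08 ± 0.34).

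Phosphofructokinase, the committing step of glycolysis, is built from subunits of 3 genes, and these leaned in different directions. Pfkl, the liver-type subunit, stood at 129, 118 and 129 CPM against 86, 85.5 and 51.3 CPM, without overlap (0.76 ± 0.22; edgeR adjusted p = 0.265). Pfkm, the muscle-type subunit, had the opposite order at 6.26, 5.66 and 6.12 CPM against 12.7, 11.1 and 7.97 CPM (-0.81 ± 0.26; adjusted p = 0.290). It was the only one of the 34 genes in which every library labelled Trmt6-/- lay below every WT library. Pfkp, the platelet-type subunit, overlapped at 433, 547 and 654 CPM against 312, 545 and 432 CPM (0.34 ± 0.27; adjusted p = 0.699). Per kilobase of exon, Pfkp was the leading subunit transcript in all 6 libraries with 58.3 to 76.2% of the family. Pfkm was the smallest at 3.51, 2.82 and 2.62% against 9.48, 5.83 and 5.64%. Exons of Pfkm share 10.75% of their bases with Senp1 and Gm26513, and reads there were not assigned to any gene.

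Aldolase splits the phosphorylated hexose, and Aldoa is its ubiquitous, HIF-responsive form. It stood at 722, 704 and 757 CPM against 516, 511 and 446 CPM, with close replicates and no overlap (728 ± 27.3 against 491 ± 39.2 CPM). The log2 fold change was 0.57 ± 0.18 (edgeR adjusted p = 0.281), equal to a 1.48-fold ratio of means.

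The remaining enzymes of the pathway were abundant and their groups overlapped. Gpi1, which isomerises glucose phosphate, stood at 828 ± 159 against 672 ± 228 CPM. Tpi1, the triose phosphate isomerase, was at 669 ± 122 against 724 ± 182 CPM, and Gapdh, the dehydrogenase often taken as a reference gene, at 1497 ± 269 against 1376 ± 519 CPM. Pgk1, an ATP-forming kinase and classical HIF target on chromosome X, came nearest to separation at 527, 516 and 611 CPM against 361, 522 and 381 CPM (0.39 ± 0.21; edgeR adjusted p = 0.550), with WT186 above KO73 by a narrow margin. Pgam1 (230.4 ± 59.4 against 253 ± 51.7 CPM), Eno1 (1309 ± 352 against 1081 ± 434 CPM) and Pkm (962 ± 179 against 1194 ± 395 CPM) complete the lower part of glycolysis. Exons of Pkm share 15.3% of their bases with Gm49759. Ldha, which turns pyruvate into lactate, stood at 1481, 1723 and 2213 CPM against 1347, 1904 and 1431 CPM (0.21 ± 0.28; adjusted p = 0.830). The log2 fold changes of these 8 enzymes lay between -0.31 for Pkm and 0.39 for Pgk1. Per kilobase of exon Ldha was the highest of the 34 genes, at 509 CPM per kb over all libraries, followed by Gapdh at 348 and Tpi1 at 253 CPM per kb.

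These abundant enzymes shared an order of libraries that was not the order of genotype. Of the 14 glycolytic enzymes, 9 (Gpi1, Pfkp, Tpi1, Gapdh, Pgk1, Pgam1, Eno1, Pkm and Ldha) were highest in KO75 within their group and in WT186 within the other, a pairing seen for 18.7% of all genes tested. Eno1 shows it at 960.0, 1303 and 1664 CPM against 795, 1580 and 869 CPM. Of the 10 HIF targets outside glycolysis, Bnip3 alone had that pairing. Markers of other cell states varied between the same libraries. The 12 enterocyte markers summed to 35326, 61881 and 55691 CPM against 22400, 59369 and 41748 CPM. The sum was lowest in KO72 and WT185 and highest in KO73 and WT186. Singly, 9 of the 12 were highest in KO73 within their group, and 3 (25%) had the pairing of KO75 and WT186. The 11 cell cycle markers were highest in KO72 and WT185, at 987, 645 and 374 CPM against 1285, 532 and 1007 CPM. Whether the make-up of the tissue set the level of these enzymes was not tested.

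**Figure D2:**
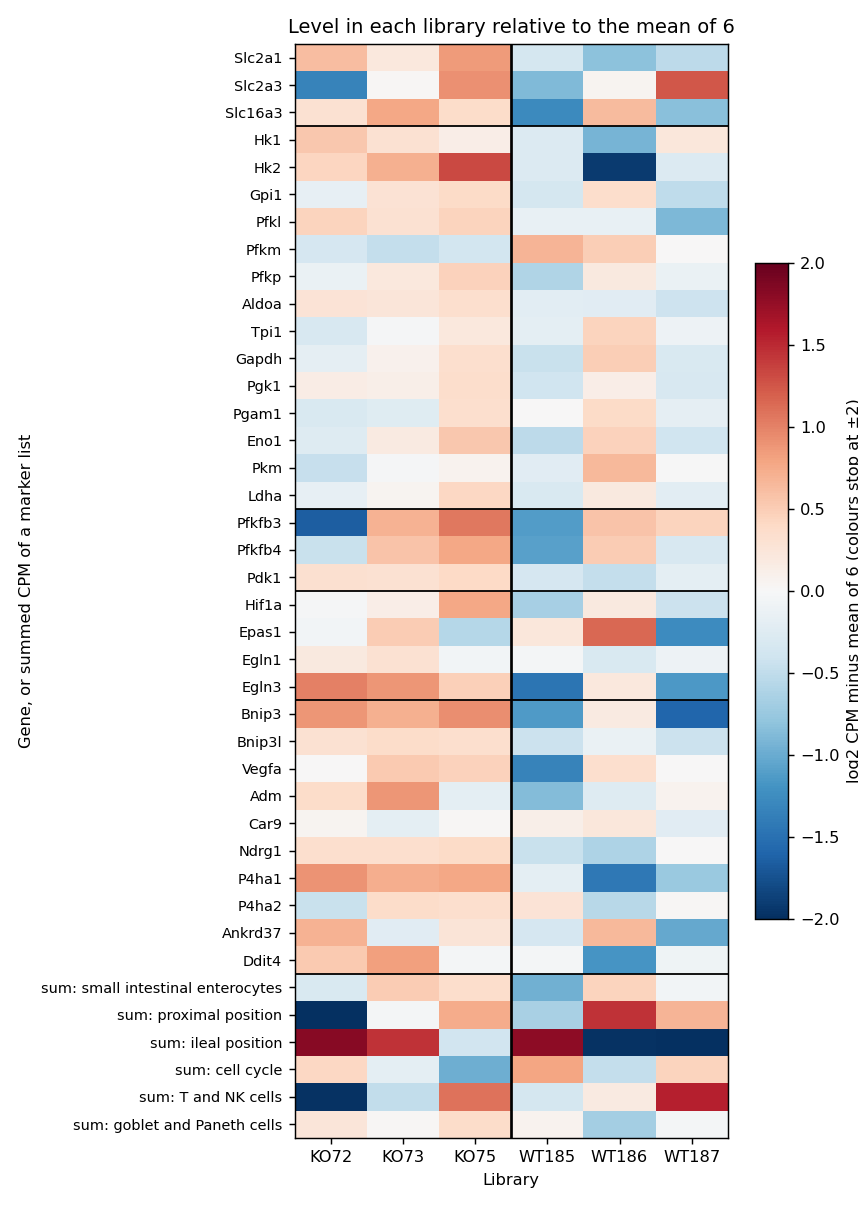
Log2 CPM of each gene, and of the summed CPM of 6 marker lists, in each library (columns) relative to the mean of the 6 libraries, with red above and blue below that mean and colours stopping at ±2. Pdk1, Bnip3l and Aldoa change colour at the line between the groups, whereas Gapdh, Eno1 and Pkm are reddest in KO75 or WT186.

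Flux through glycolysis is tuned by bifunctional PFKFB enzymes, which set the level of the main activator of phosphofructokinase, and pyruvate is kept out of mitochondria by pyruvate dehydrogenase kinases. Pdk1, the HIF-induced kinase of that family, was among the steadiest differences of the set. It stood at 112, 110.3 and 118 CPM against 70.7, 64.3 and 78.2 CPM, so both groups were tight and apart. The log2 fold change was 0.67 ± 0.13 with an edgeR adjusted p of 0.173, which with Slc2a1 was the lowest among the 34. The other kinases did not follow: Pdk2 was at 73.4 ± 16.8 against 112 ± 38.4 CPM, Pdk3 at 33.1 ± 1.68 against 34.3 ± 4.09 CPM and Pdk4 at 60.9 ± 55.2 against 73.5 ± 70.2 CPM, and 0 of these 3 reached an unadjusted p below 0.05. Pfkfb4 stood at 106, 214 and 247 CPM against 68.1, 204 and 115 CPM (0.55 ± 0.46). Pfkfb3 had the widest spread inside a group, at 20.8, 105 and 135 CPM against 29.9, 97.1 and 88.9 CPM (0.28 ± 0.69). In both of these the lowest library of each group, KO72 and WT185, was also the lowest in enterocyte markers, and that relation was not tested.

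Among HIF subunits, Hif1a (the ubiquitous alpha subunit) stood at 99.4, 111 and 173 CPM against 63.7, 115.98 and 75 CPM, with overlap at WT186 (0.59 ± 0.30; edgeR adjusted p = 0.518). Epas1, the second alpha subunit, active in iron absorption and inflammation of the gut, varied more inside WT than between groups, at 65.0, 96.0 and 45.3 CPM against 79.1, 149 and 28.1 CPM (-0.31 ± 0.57). Per kilobase Hif1a took 51.0 to 77.2% of alpha subunit transcripts in the libraries labelled Trmt6-/- and 42.5 to 71.3% in WT. HIF activity is set mostly by protein stability, which these libraries do not measure. Of the prolyl hydroxylases that mark the alpha subunits, Egln3, itself a strongly inducible target, was at 146, 134 and 101 CPM against 26.3, 83.6 and 32.7 CPM. The groups did not overlap, and WT186 stood well above the other WT libraries (127 ± 23.2 against 47.5 ± 31.4 CPM; 1.42 ± 0.44, adjusted p = 0.281). Egln1, the main oxygen sensor, differed less at 79.3, 85.5 and 66.4 CPM against 67.1, 56.0 and 64.4 CPM (0.30 ± 0.15; adjusted p = 0.508). Egln2, which is not among the 34, was level at 68.9 ± 4.99 against 69.7 ± 2.96 CPM. As a result Egln3 made up 47.3 to 54.6% of hydroxylase transcripts per kilobase in the libraries labelled Trmt6-/-, and 18.8, 44.0 and 21.8% in WT185, WT186 and WT187.

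**Figure D3:**
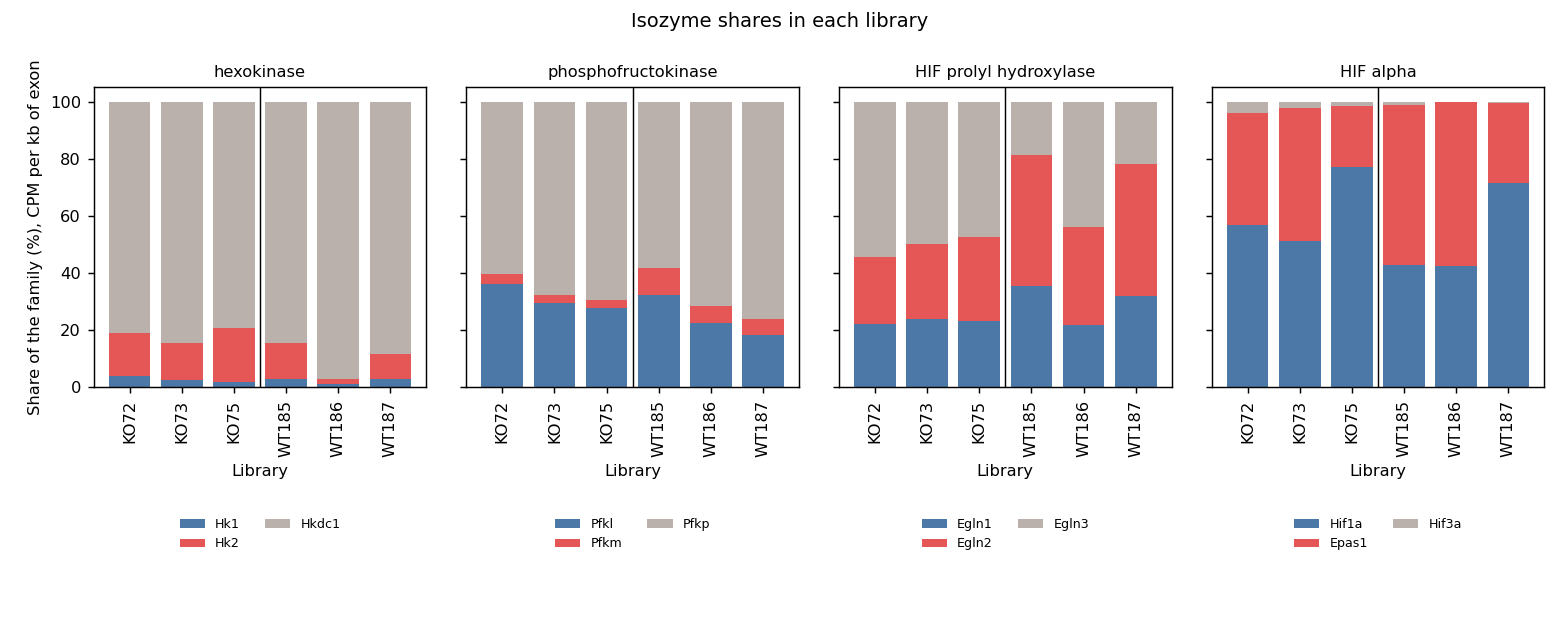
Share of each gene among the listed genes of its family (y axis, percent of summed CPM per kb of exon) in each of the 6 libraries, one panel per family, with a line between the groups. Hkdc1 and Pfkp lead their panels in all 6 libraries, and Egln3 takes 47.3 to 54.6% in the 3 libraries left of the line.

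Mitophagy receptors gave some of the clearest separations. Bnip3l, which tags mitochondria for removal, was at 101, 105 and 103 CPM against 60.4, 74.4 and 60.4 CPM, with the libraries labelled Trmt6-/- nearly equal and no overlap. Its log2 fold change was 0.66 ± 0.14 (edgeR adjusted p = 0.180). Bnip3l is also abundant in maturing red cells, and the 5 erythrocyte markers summed to 56.8, 197 and 31.7 CPM against 43.8, 8.32 and 23.2 CPM. Their part in the Bnip3l difference was not tested. Bnip3, its paralogue, stood at 25.9, 23.0 and 26.8 CPM against 6.36, 15.9 and 4.67 CPM, 2.81-fold by group means (1.49 ± 0.45; adjusted p = 0.275). WT186 again lay above the other WT libraries but below all those labelled Trmt6-/-. Exons of Bnip3 share 22.25% of their bases with Gm45507 and lost the reads that fell there.

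A further pair of separated targets acts in stress signalling and in collagen synthesis. Ndrg1, a growth-arrest gene of differentiating epithelium, was at 152, 153 and 158 CPM against 88.4, 79.1 and 122 CPM (0.68 ± 0.19; edgeR adjusted p = 0.251). P4ha1, the catalytic subunit of collagen prolyl hydroxylase, was low but apart at 12.4, 11.0 and 11.3 CPM against 5.78, 2.46 and 3.96 CPM (1.5 ± 0.35; adjusted p = 0.198). Its relative P4ha2 was near the limit of detection, with 13 to 30 counts in a library, and overlapped (0.17 ± 0.42). The 8 fibroblast markers (3 tested), from cells in which collagen hydroxylases are prominent, summed to 54.1 to 144 against 105 to 308 CPM, and 0 of the 8 was at 0 in all libraries. Fbln1 made up most of that sum (51.8 to 136 against 98.8 to 301 CPM), and Col1a1, Col1a2 and Col3a1 reached at most 1.38 CPM. Ddit4, an inhibitor of mTORC1 induced by hypoxia and by amino acid stress, stood at 55.8, 68.7 and 37.9 CPM against 37.7, 17.1 and 36.6 CPM. Its groups were separated by only the gap between KO75 and WT185, and it had an unadjusted p of 0.0505 (0.83 ± 0.35; adjusted p = 0.415).

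Targets of angiogenesis and acid handling overlapped between groups. Vegfa, the main endothelial growth factor, stood at 108.1, 154 and 148 CPM against 42.4, 135 and 108.1 CPM, so WT185 alone lay far below (0.53 ± 0.40; edgeR adjusted p = 0.690). Adm, a vasodilator peptide gene, held only 12 to 30 counts in a library (0.71 ± 0.45). Of 10 endothelial markers, 3 were tested, and the list summed to 4.84 to 8.87 against 4.98 to 5.27 CPM. Car9, a membrane carbonic anhydrase that serves elsewhere as a marker of hypoxia, was even across libraries at 92.4, 77.0 and 90.4 CPM against 95.7, 103 and 75.7 CPM (-0.08 ± 0.16). With that SE, Car9 is among the members whose difference was estimated most tightly near 0. Ankrd37, a small target with few counts, stood at 5.31 to 10.05 against 3.06 to 9.69 CPM (0.37 ± 0.47), and 26.4% of its exon bases are shared with Ufsp2 and Lrp2bp.

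**Figure D4:**
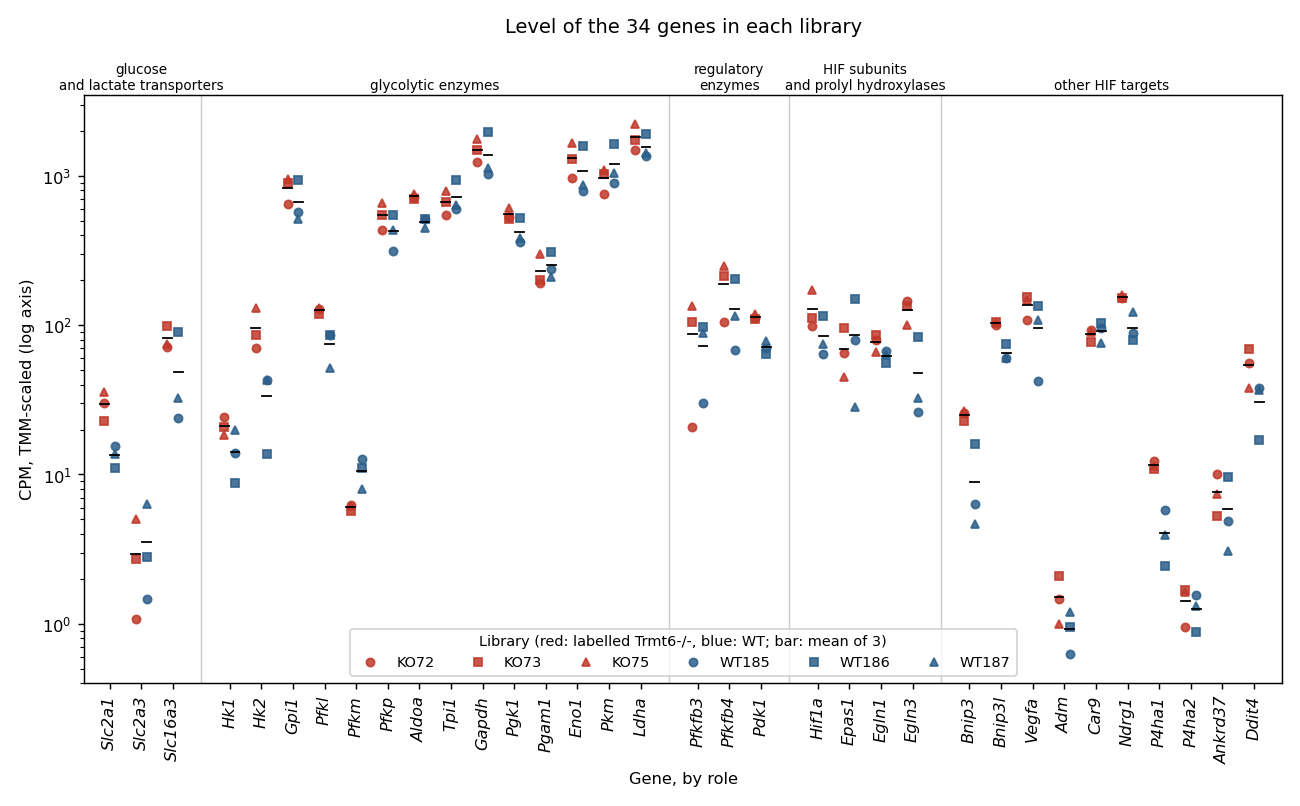
Level of each of the 34 genes (y axis, TMM-scaled CPM on a log axis) in the 3 libraries labelled Trmt6-/- (red) and the 3 WT libraries (blue), with the group mean as a bar and genes ordered by role. The red points of Slc2a1, Hk2, Pfkl, Aldoa, Pdk1, Egln3, Bnip3, Bnip3l, Ndrg1, P4ha1 and Ddit4 all lie above the blue ones.

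Other genes of the same pathways were read from lists outside the 34. Of 35 further genes of glycolysis, pyruvate and glycogen or pentose handling, 31 were tested, 0 passed after adjustment, and 3 had an unadjusted p below 0.05 by edgeR (1 higher, 2 lower; median log2 fold change 0.07). That is 9.68% of those tested, below the 12.1% of all genes. The higher one was Pdp1, the phosphatase that reactivates pyruvate dehydrogenase, at 10.8, 7.89 and 4.91 CPM against 3.75, 2.52 and 3.84 CPM (1.22 ± 0.38). Dlat, a core subunit of pyruvate dehydrogenase, was lower at 50.6, 61 and 89.0 CPM against 111, 130 and 96.0 CPM (-0.75 ± 0.24). Tkt, the transketolase of the pentose pathway, stood at 888 ± 55.7 against 652 ± 75.9 CPM (0.45 ± 0.20; unadjusted p = 0.0571), without overlap.

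Of 14 other HIF regulators, 3 were higher at an unadjusted p below 0.05 (background 6.15%) and the median log2 fold change was -0.02. Cited2, an inducible inhibitor that competes with HIF for its coactivators, stood at 110.2, 137 and 111 CPM against 84.7, 75 and 75.6 CPM (0.61 ± 0.15; edgeR adjusted p = 0.210). Hif3a, a low-level alpha subunit (5.66 ± 2.07 against 1.13 ± 0.96 CPM; 2.30 ± 0.64), and Arnt2 (5.67 ± 2.56 against 1.81 ± 0.54 CPM; 1.65 ± 0.48) were named after their values were seen. Hif3a was scarce in WT (43, 8 and 10 counts) and passed the low-count filter through the libraries labelled Trmt6-/-. Of the constitutive parts of the machinery, Arnt (58.2 ± 1.67 against 62.6 ± 8.34 CPM) and the coactivator gene Ep300 (155.5 ± 14.5 against 159 ± 11.2 CPM) overlapped between groups. Vhl was slightly higher without overlap, at 21.7 ± 1.59 against 19.3 ± 0.45 CPM (0.17 ± 0.15; edgeR adjusted p = 0.734).

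Of 38 further HIF targets, 28 were tested, 7 were higher and 0 lower at an unadjusted p below 0.05 (backgrounds 6.15% and 5.94%), and the median was 0.36. Nt5e, which makes extracellular adenosine, stood at 56.7, 68.2 and 22.3 CPM against 6.51, 12.8 and 22.5 CPM, with overlap at KO75 and WT187 (1.82 ± 0.55; edgeR adjusted p = 0.275). The mitochondrial Fam162a (51.5 ± 13.5 against 27.3 ± 9.41 CPM; 0.92 ± 0.30), the sterol sensor partner Insig2 (49.9 ± 6.30 against 32.7 ± 9.39 CPM; 0.61 ± 0.23) and Pnrc1 (131 ± 10.3 against 87.3 ± 24.2 CPM; 0.59 ± 0.23) also leaned up. The other 3, Stc2, Ak4 and Hmox1, averaged below 5 CPM over all libraries and were named after their values were seen. Their WT counts were 11, 1 and 0 for Stc2, 8, 4 and 12 for Ak4, and 12, 5 and 15 for Hmox1. They passed the low-count filter through the libraries labelled Trmt6-/-. The 7 higher genes thus include genes that the filter kept for their level in that group. Stc2 stood at 14.7, 5.10 and 3.56 CPM against 0.57, 0.07 and 0 CPM, without overlap (5.06 ± 1.10; edgeR adjusted p = 0.183). Ak4 was at 2.02 ± 1.26 against 0.47 ± 0.23 CPM and Hmox1 at 1.99 ± 1.19 against 0.62 ± 0.28 CPM. The most abundant of the list did not differ beyond their spread, with Tfrc at 646 ± 152 against 652 ± 235 CPM and Tff3 at 555 ± 159 against 405 ± 97.5 CPM.

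A fit that held the gut position index as a covariate left 19 of the 34 genes at an unadjusted p below 0.05, 18 higher and 1 lower. Of all genes, 20.5% reached that level and 9.85% did so as higher, and 0 of 14107 passed after adjustment. The index itself leaned lower in WT, so this fit does not fully separate it from genotype. All 11 genes listed above were among the 19. The added 8 were Slc16a3 (1.69 ± 0.56), Pfkp (0.85 ± 0.20), Pgk1 (0.65 ± 0.22), Eno1 (0.86 ± 0.30), Pfkfb3 (1.62 ± 0.53), Pfkfb4 (1.56 ± 0.30), Hif1a (1.14 ± 0.21) and Vegfa (1.53 ± 0.31). Ddit4 went the other way, to 0.31 ± 0.37. Copies of several members share long identical stretches, and featureCounts leaves out reads mapped to more than one place, so levels of Gapdh, Ldha, Pgk1, Pgam1, Tpi1 and Eno1 may be understated. The reads that were assigned to such copies were few, with 162 counts over the 6 libraries for Bnip3l-ps, 118 for Pgk1-rs7, 86 for Pgam1-ps2 and 55 for Eno1b.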

How the data were processed

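Per the file headers, the deposited values are raw gene counts made with featureCounts 2.0.1 from paired reads, with exons grouped by gene on the GENCODE M23 annotation and no strand, multimapping or overlap option. The submitters' processing notes name fastp, HISAT2 and mm10. The deposited gene length (unit: other) was used for CPM per kb of exon, in which a gene with long rarely used exons is understated. Columns name a group and a number that is not a replicate number of the labels, so they were assigned to groups only. Symbols came from GENCODE M21 (55154 of 55335 identifiers matched).

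After filterByExpr and TMM scaling, genotype alone was fitted in edgeR 4.0.16 under R 4.3.3 (quasi-likelihood, two-sided, Benjamini-Hochberg over 14107 genes, threshold 0.05). The SE is the log2 fold change divided by the square root of F. Animals are separate per the series design. Libraries held 15213972 to 16972758 counts, and the spread between animals (common biological coefficient of variation 0.345) limited the precision. Libraries were PCR-amplified, and counting error alone is not the spread between animals. Alternatives were DESeq2 1.42.0, limma-voom (limma 3.58.1), library totals, RLE or upper-quartile scaling, 2 other filters, a regional index as covariate and each library left out. The scripts were tested on simulated data. The index set ileal genes (Slc51b, Fgf15, Fabp6, Slc10a2) against proximal ones (Lct, Fabp1, Gata4, Cybrd1).

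The members, lists and alternatives were chosen with earlier results of these data known. The naming rule took all 34 members and, from each further list, genes past the adjusted threshold, then up to 6 at an unadjusted p below 0.05 with at least 5 CPM, then the 2 with the highest CPM. Isozymes and regulators named beyond it were chosen after their values were seen. Set tests were not used. Some results are not reported here, and shares within a family are over the genes named.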

Additional observations from a re-analysis of the deposited data

How the results depend on the processing

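The number of genes past the adjusted threshold among all tested was 6 and depended on the method: 0 with library totals, limma-voom or the regional index as covariate, 633 with DESeq2, 159 without a low-count filter, and 0 to 6 with a library left out. Among the 34 genes it was 0 in each of these fits but DESeq2 (8). DESeq2 gave Slc2a1 1.14, Hk2 1.52, Aldoa 0.57, Pdk1 0.68, Bnip3 1.49, Bnip3l 0.66, Ndrg1 0.69 and P4ha1 1.5, values close to those of edgeR, so the calls and not the sizes differed. The count at an unadjusted p below 0.05 was 11, 19 with the regional index and 10 to 16 with a library left out. The glycolysis and HIF pathway medians ran from 0.20 to 0.58 and from 0.48 to 0.77 in those omissions, and were 0.68 and 0.75 with the regional index. With the regional index, Slc2a3 (0.94), Tpi1 (0.27), Pgam1 (0.14) and Pkm (0.17) turned above 0. With a library left out, 9 genes changed sign within these ranges: Slc2a3 -0.88 to 0.46, Tpi1 -0.24 to 0.12, Gapdh -0.0347 to 0.49, Pfkfb3 -0.17 to 0.76, Pgam1 -0.36 to 0.0464, Pkm -0.46 to 0.0025, Epas1 -0.74 to 0.36, Car9 -0.21 to 0.0228 and P4ha2 -0.0117 to 0.39. The cause was not tested. The 3 scalings and both filters changed no sign. No paired analysis was possible because the columns carry numbers that are not the replicate numbers of the labels. The labels also state no matching of animals between the groups. With 3 libraries a group and 12 to 30 counts, Adm and P4ha2 cannot show small differences.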
